A study of Rattus norvegicus with 6 samples.

Results

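Long intergenic noncoding RNAs (lincRNAs) are transcripts that lie between protein-coding genes and are not annotated as templates for protein. Many are made in few cell types and at low levels, some act on the chromatin or transcription of the gene beside them, some hold a microRNA or a small nucleolar RNA in their transcript, and a few carry a short reading frame that was overlooked at first. In the heart they are studied for roles in development and in the response to injury, and most rat lincRNAs still carry only a clone name. The rows described here were chosen by their annotation and by their measured level: those whose transcript type in the deposited table was lincRNA without a protein-coding transcript, and whose mean FPKM (fragments per kilobase of transcript, scaled to library size, a level corrected for length and depth) over the 6 samples was at least 0.5. This left 158 rows of the 3091 lincRNA rows and of the 32623 rows in all. The level was therefore what chose the rows, and it is given as a description.

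Total RNA of the myocardium was sequenced in wild-type rats described as male, 3 sham rats and 3 rats in which ischemia was induced by ligating the left anterior descending coronary artery, with 30 min given for all 6 samples. The protocol given with all 6 samples describes anesthesia, ventilation and left thoracotomy but not the sham operation on its own, each sample was numbered as 1 replicate of its group, and which wall or chamber the tissue came from was not stated. Strain and age were not given in the sources used here. The p-values therefore measured the spread between 3 samples and 3 samples, and an exact permutation test over them cannot go below 0.1.

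The samples differed in more than their group. Total counts were between 68529126 and 79591989, and 3 counts were worth 0.0377 to 0.0438 CPM (counts relative to the size of the library). The ventricular marker list was present in all samples, with summed FPKM of 25102 to 42188 in sham against 12582 to 24500 in ischemia. The fibroblast list (685 to 2223 against 264 to 682) and the epicardial list (36.5 to 77.4 against 4.83 to 27.8) were also lower in every ischemia sample than in every sham sample, although no single gene of these 3 lists passed the adjusted test. The part of these tissues and cells in the results was not tested. The atrial list (Myl7, Myl4, Nppa, Sln, Bmp10 and Nr2f2) did not follow the groups and summed to 48361, 219 and 39360 FPKM in the sham samples, in the order of their replicate numbers, and to 9620, 2084 and 1287 in the ischemia samples. The library labelled sham replicate 1 had 161 counts on the 48 rows of chromosome Y, against 3218 to 8970 in the other 5 samples, which goes against its description as male. The neutrophil and monocyte list had summed FPKM of 130 to 211 in sham against 1327 to 9111 in ischemia, highest in ischemia replicate 2, and 12 of its 16 tested genes rose and 0 fell. The T, B and NK cell list was also higher in every ischemia sample (28.8 to 40.9 against 13.6 to 17.8), with 1 of its 8 tested genes passing. Retnlg, a neutrophil gene, had no counts in any sham sample. In bulk tissue, fewer cells of a type and less RNA per cell cannot be told apart.

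The expressed lincRNAs were short, low and mostly unnamed. The median of their mean FPKM was 1.55, against 7.34 for the 13032 protein-coding rows at the same minimum level, and 5.11% of the lincRNA rows reached that level against 59.1% of the protein-coding rows. Of the 158 rows, 52 had a mean of 0.5 to 1 FPKM, 78 of 1 to 5, 13 of 5 to 10 and 15 of 10 or more. Together they held 0.119%, 0.0767% and 0.103% of all counts in the sham samples against 0.105%, 0.169% and 0.111% in ischemia, so the groups overlapped. The median span was 4082 bases against 19105 bases for protein-coding rows, and 131 rows had a single transcript. In all, 123 rows carried a clone name, 33 a LOC number, and Tug1 and Rfwd3 a gene symbol.

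Not every row was plainly noncoding or plainly intergenic. The description of 24 rows named a protein, 17 rows could be matched by identifier to RefSeq (assembly GRCr8), and of these 13 were lncRNA, 3 were protein-coding (Fam178b, Rfwd3 and Marf1l1) and 1 was a transcribed pseudogene. None of the 24 rows with a protein description passed the adjusted edgeR test below, where 5.18% of all tested genes rose and 1.53% fell. With a second test, DESeq2, some of the 24 passed, among them AABR07035722 and LOC100910854 (adjusted p = 0.0001 and 0.000769). A protein-coding row overlapped 13 of the 158, on the same strand for 6 and only on the opposite strand for 7. The strand setting of the counting was not given in the sources used here, so reads of such pairs may not be separable.

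The 5 rows just inside the minimum level were AABR07060862, AABR07044454, AABR07051308, AABR07021503 and AABR07044148, with mean FPKM of 0.5073, 0.5215, 0.5231, 0.5265 and 0.5298. The 5 just outside it were AABR07062528, AABR07019088, AABR07073453, AABR07065448 and AABR07064878, with 0.4966, 0.4962, 0.4920, 0.4910 and 0.4902. Of the 2933 lincRNA rows under the level, 24 had 1 FPKM or more in at least one sample. Of these 24, 9 were highest in ischemia replicate 2. This sample was also the highest for 34.8% of the 158 rows and 39.3% of all genes at the minimum level.

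The main question was which expressed lincRNAs differed between sham and ischemic myocardium. With the quasi-likelihood test of edgeR across 13964 genes, 5 of the 158 rose in ischemia at an adjusted p under 0.05 (3.16%), where 5.18% of all tested genes did, and 2 fell (1.27%), where 1.53% of all tested genes did. With edgeR these shares were not above those of all genes. DESeq2 on the same genes called 14 higher (8.86%, where 14.8% of all tested genes were) and 18 lower (11.4%, against 12.5%). A difference was built into the choice of 2 of the 5 and 1 of the 2, since AABR07058158 and AC111804 reached the minimum level only through ischemia and AABR07052529 only through sham. AABR07038983, beside the microRNA gene Mir223, rose most, followed by LOC102549714, AC111804 beside Egr3, AABR07058158 downstream of Myc, and LOC102549726 in the class I region of the rat major histocompatibility complex. AABR07052529 and AABR07069454 fell. By a log2 fold change above 2 with an unadjusted p under 0.01, 7 lincRNAs were selected (4.43%, against 3.31% of all tested genes), and by a log2 fold change below -2 with the same p, 4 (2.53%, against 1.34%). The level rule bears on these shares. AC111804, AABR07058158, LOC100910854 and LOC102546683 among the 7 reached the minimum level only through ischemia. All 4 of the others reached it only through sham, so a difference was built into the choice of these rows. Every ischemia value lay above every sham value for 25 lincRNAs (15.8%, against 23.6% of all tested genes) and below every sham value for 20 (12.7%, against 15%).

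**Figure D1:**
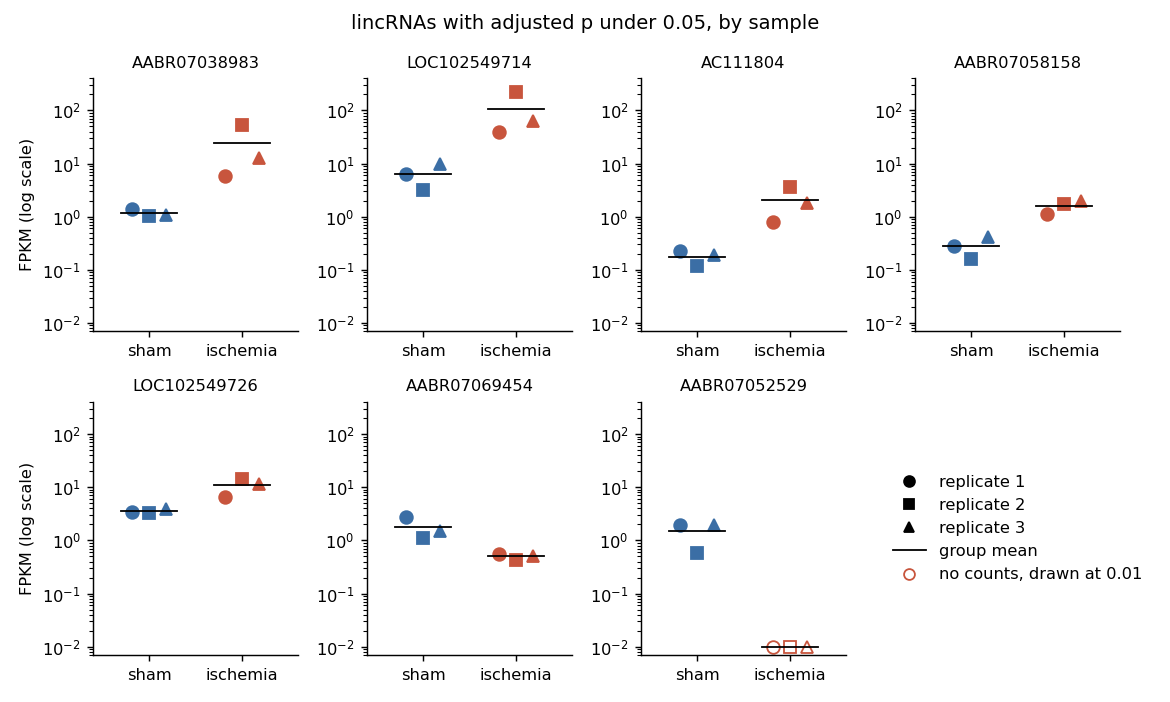
FPKM (log scale) of the 7 lincRNAs with an edgeR adjusted p under 0.05, 1 point per sample with replicates marked by shape and a line at each group mean. The 5 that rose and the 2 that fell show no overlap of the groups, and AABR07052529 had no counts in ischemia (open symbols at 0.01).

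Leaving out 1 library decided these calls and those over all genes. Without sham replicate 1, 2 or 3 or ischemia replicate 3, none of the 7 passed, and none of all 13964 genes did. The edgeR adjusted p-values of the 7 then lay between 0.158 and 0.170, between 0.0819 and 0.104, between 0.125 and 0.144, and between 0.110 and 0.147, respectively. Without ischemia replicate 2, 3 of the 7 passed, with adjusted p of the 7 from 0.0345 to 0.0864, beside 571 of all genes. Without ischemia replicate 1 all 7 passed, beside 2605 of all genes. The direction of each of the 7 was the same in all these fits.

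AABR07038983 (ENSRNOG00000051216) was listed at chrX:65367912-65368639 on the plus strand. Positions of rows are those of the table, whose genome build was not given in the sources used here. Its FPKM was 1.41, 1.04 and 1.09 in sham against 5.76, 54.3 and 12.8 in ischemia (values stand in the order of the replicate numbers throughout), from 58 to 79 counts in sham against 346 to 2966 in ischemia. All 3 ischemia samples stood above sham, and ischemia replicate 2 stood far above the others. This gave a log2 fold change of 4.20 ± 0.85 (SE; adjusted p = 0.0443), which was 2.93 without ischemia replicate 2. The row of Mir223 began 100 bases upstream on the same strand (chrX:65367812-65367921) and shared 10 bases with it.

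The microRNAs of Mir223 are shown because this gene, best known from granulocytes and monocytes, is the one that the lincRNA row abuts. In the RefSeq sequences (GRCr8, plus strand), miR-223-5p lies at chrX:65151408-65151430 and miR-223-3p at chrX:65151450-65151470, and the capitals mark the seed, bases 2 to 8. The 2 arms do not share a seed.
rno-miR-223-5p: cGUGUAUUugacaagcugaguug
rno-miR-223-3p: uGUCAGUUugucaaauacccc

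The Mir223 row itself had 0, 0 and 1 counts in sham against 1, 45 and 7 in ischemia. Its log2 fold change of 5.18 ± 1.69 did not pass the test (adjusted p = 0.101), and a total RNA library does not measure mature microRNAs well. On the far side lay Vsig4, a complement receptor of resident macrophages, 2212 bases away, with FPKM of 0.990, no counts and 4.27 in sham against 0.686, 0.818 and 0.564 in ischemia. The groups overlapped for Vsig4, and its log2 fold change was -1.33 (adjusted p = 0.565). Msn, which encodes the membrane linker moesin, lay 72102 bases upstream and rose by 1.97 on the log2 scale (adjusted p = 0.0365).

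LOC102549714 (ENSRNOG00000059338, chr7:60282326-60283912, plus strand) was the most abundant of the lincRNAs that rose. Its FPKM was 6.24, 3.16 and 9.85 in sham against 39.6, 223 and 61.9 in ischemia, for a log2 fold change of 3.98 ± 0.73 (adjusted p = 0.0383), or 3.0 without ischemia replicate 2. The lowest ischemia value was several times the highest sham value. The nearest coding gene, Yeats4, a subunit of chromatin complexes, lay 3619 bases downstream at 29.5, 25.5 and 27.8 FPKM in sham against 29.2, 28.0 and 25.9 in ischemia, and the groups overlapped. Beyond Yeats4 lay 2 lysozyme rows, named here after their values were seen. Lyz2, the lysozyme of macrophages and neutrophils, lay 52056 bases from the lincRNA and had FPKM of 123, 83.5 and 173 in sham against 746, 4747 and 1477 in ischemia. It rose by 4.09 on the log2 scale (adjusted p = 0.0366), and Lyc2, 32132 bases from the lincRNA, rose by 3.93 (adjusted p = 0.0298). The 6 samples of Lyz2 and of LOC102549714 stood in the same order.

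AC111804 (ENSRNOG00000062261, chr15:51761603-51762080, plus strand) lay 881 bases downstream of Egr3 on the same strand. Egr3 is an immediate early transcription factor, induced within minutes of a stimulus. AC111804 had FPKM of 0.227, 0.119 and 0.187 in sham against 0.783, 3.62 and 1.83 in ischemia, from only 5 to 9 counts in sham against 31 to 130 in ischemia. It reached the minimum level through ischemia alone, so a difference was built into its choice. Its log2 fold change was 3.32 ± 0.66 (adjusted p = 0.0439), or 2.75 without ischemia replicate 2. Egr3 had FPKM of 0.479, 0.359 and 0.164 in sham against 0.754, 3.31 and 1.53 in ischemia, in the same order within ischemia. Its log2 fold change of 2.32 ± 0.66 did not pass (adjusted p = 0.0787). Whether its reads run on from Egr3 was not tested.

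AABR07058158 (ENSRNOG00000062170, chr7:102648881-102869845, plus strand) was the longest of the 7, spanning 220965 bases with 18 transcripts. It began 57641 bases downstream of Myc on the same strand, and the next coding row on its other side was Gsdmc. Between the same neighbours, RefSeq lists Pvt1, a lncRNA best known for its place beside Myc. It had 86, 53 and 122 counts in sham against 364, 516 and 561 in ischemia, and FPKM was 0.281, 0.158 and 0.420 against 1.12, 1.74 and 2.0. This was the one of the 5 that was not highest in ischemia replicate 2. The log2 fold change was 2.43 ± 0.42 (adjusted p = 0.0361), and it was 2.42 without ischemia replicate 2, although the adjusted p was then 0.0539. This row too reached the minimum level through ischemia alone. Myc, a transcription factor of growth and ribosome synthesis, had FPKM of 2.43, 1.89 and 2.87 in sham against 29.8, 74.6 and 46.3 in ischemia, and rose by 4.29 ± 0.35 on the log2 scale (adjusted p = 0.0246).

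LOC102549726 (ENSRNOG00000054031, chr20:4871264-4873982, minus strand) had the smallest rise of the 5 and the smallest SE. Its FPKM was 3.38, 3.24 and 3.95 in sham against 6.59, 14.5 and 11.3 in ischemia, which gave means of 3.52 ± 0.375 and 10.8 ± 3.99 (SD, n = 3). The log2 fold change was 1.52 ± 0.31 (adjusted p = 0.0446), or 1.31 without ischemia replicate 2. The row held 2 small nucleolar RNA rows, Snord52 and Gm25744, of 66 and 64 bases, a class of RNAs that guide chemical marks on ribosomal RNA and are often cut from introns of host transcripts. Snord52 had 1 count in each of the 6 samples, so it was hardly measured. The lincRNA lay within the long rows of RT1-CE7, RT1-CE4 and RT1-CE1 on the same strand, class I histocompatibility genes. RT1-CE7 had FPKM from 4.25 to 15.5 in sham against 4.27 to 13.4 in ischemia, and the groups overlapped. Hspa1b, the inducible HSP70, lay 3342 bases away with FPKM of 14.5, 5.69 and 9.20 in sham against 10.9, 413 and 17.5 in ischemia, where 1 sample stood apart (log2 fold change 3.76, adjusted p = 0.129).

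LOC102549726 was the only one of the 7 with a promoter sequence in the table used. RefSeq (GRCr8) places that window, 250 bases before the start to 50 after it, at chr20:3880958-3881257 on the plus strand. The window was tied by identifier only to the counted row, which is listed on the minus strand of a build that was not given. Beside it stands the window of LOC102550036, at chr1:153468886-153469185 on the minus strand, which starts 263 bases from Picalm in the deposited table and was chosen after its values were seen, as a row with non-overlapping lower values (FPKM 2.91, 2.81 and 2.81 in sham, 1.20, 0.333 and 1.07 in ischemia, adjusted p = 0.0994). Capitals mark matches to TATAAA, the TATA box, to CGCG, a marker of CpG-rich promoters, and to ACGTG, the core of hypoxia-response and E-box elements.
LOC102549726: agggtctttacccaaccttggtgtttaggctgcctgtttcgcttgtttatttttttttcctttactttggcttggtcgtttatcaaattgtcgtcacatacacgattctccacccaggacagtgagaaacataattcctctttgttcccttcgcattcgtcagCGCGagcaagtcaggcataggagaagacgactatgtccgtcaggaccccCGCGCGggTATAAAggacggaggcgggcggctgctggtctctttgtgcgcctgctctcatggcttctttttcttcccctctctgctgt
LOC102550036: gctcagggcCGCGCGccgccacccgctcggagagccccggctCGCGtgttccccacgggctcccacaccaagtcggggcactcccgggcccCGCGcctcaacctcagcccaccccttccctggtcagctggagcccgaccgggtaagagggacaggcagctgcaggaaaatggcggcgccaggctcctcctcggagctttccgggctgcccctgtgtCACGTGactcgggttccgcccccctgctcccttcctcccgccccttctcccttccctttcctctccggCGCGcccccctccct

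The first window has 1 TATAAA and 3 CGCG matches and a GC content of 50.3%, and the second has no TATAAA, 5 CGCG and 2 ACGTG matches and a GC content of 72.7%, where the median of all windows was 51.7%. Windows were available for 11 of the 158 lincRNAs, and both strands were searched, so a CACGTG counts for ACGTG on each strand and CGCGCG holds 2 overlapping CGCG. The TATA box was in 2 of the 11 and in 14.2% of all 33469 windows, CGCG in 3 and in 35.7%, and ACGTG in 2 and in 19.3%. TGANTCA (the AP-1 site), TGACGTCA (the cAMP response element), GAANNTTC (part of the heat shock element) and the NF-kB site, taken as GGGA and TTCC around any pair of bases, were in none of the 11 and in 7.33%, 1.83%, 8.59% and 1.30% of all windows. A match is a description of the letters, and so is its absence.

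AABR07052529 (ENSRNOG00000061018, chr3:60249518-60253140, minus strand) had the most one-sided counts of the 7. It had 219, 68 and 210 counts in sham against no counts in any ischemia sample. Taking 3 counts as the floor per library, its mean CPM in sham was 55.5 times the mean floor in ischemia (adjusted p = 0.0296). This is a ratio of means, and the sham sample with 68 counts stood closer to the floor than the others. The row met the minimum level through sham alone. Its nearest coding gene, Wipf1, an actin regulator of blood cells, lay 83505 bases away at 4.78, 4.06 and 6.31 FPKM in sham against 5.18, 17.5 and 6.37 in ischemia, and the groups overlapped.

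AABR07069454 (ENSRNOG00000059163, chr8:23178097-23181310, plus strand) had FPKM of 2.77, 1.12 and 1.52 in sham against 0.555, 0.437 and 0.519 in ischemia. The ischemia samples lay close together below the lowest sham sample. It fell by 1.88 on the log2 scale (SE 0.41, adjusted p = 0.0485). Pigy, 7888 bases away, which encodes a subunit of the enzyme that starts GPI anchor synthesis, had FPKM of 5.30 to 7.95 in sham against 6.08 to 8.35 in ischemia, and the groups overlapped.

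A further 8 lincRNAs had groups that did not overlap and an unadjusted edgeR p under 0.01, but did not pass its adjusted test. The share of all tested genes under this joint rule was not counted. With DESeq2 all 8 passed, with adjusted p from 0.0001 to 0.0159. That test called 14.8% of all tested genes higher and 12.5% lower. A difference was built into the choice of 5 of them, since LOC102546683 and LOC100910854 reached the minimum level only through ischemia and AABR07040629, AC127084 and AABR07021213 only through sham. Of the 5 with ischemia above sham, LOC102546683 (chr17) had 10, 0 and 6 counts in sham against 90, 82 and 158 in ischemia (log2 fold change 4.35, adjusted p = 0.0573). AABR07035722 (chr12), described as similar to a paired immunoglobulin-like type 2 receptor, a family of inhibitory and activating receptors of myeloid cells, had FPKM of 0.575, 0.456 and 1.04 in sham against 1.97, 15.4 and 4.53 in ischemia (log2 fold change 3.29, adjusted p = 0.0533, or 2.23 without ischemia replicate 2). For LOC100910854, AABR07054460 and AC119762 the log2 fold changes were 2.68, 1.84 and 1.84, with adjusted p-values of 0.0582, 0.0588 and 0.0624. That of LOC100910854 was 1.82 without ischemia replicate 3, and that of LOC102546683 was 5.11 without sham replicate 1. Their neighbours differed in how far they were measured. Atxn1, the nearest coding gene of LOC102546683 at 190111 bases, had a log2 fold change of -1.50 (adjusted p = 0.0504), while Unc5d, Rab25 and the nearest coding rows of AABR07035722 and AABR07054460 were under the minimum level. AABR07054460 lay 11904 bases from Snhg11, a host gene of small nucleolar RNAs that the table lists as coding.

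The other 3 had ischemia below sham. AABR07040629 (chrX) had FPKM of 2.18, 0.538 and 2.18 in sham against 0.172, no counts and 0.0992 in ischemia (log2 fold change -4.00, adjusted p = 0.0609). It lay 816 bases upstream of Tceal5 on the same strand, and Tceal5 had FPKM of 6.46, 0.780 and 5.04 in sham against 0.847, 0.309 and 0.699 in ischemia (log2 fold change -2.70, adjusted p = 0.0854). In both, sham replicate 2 was the lowest sham sample and ischemia replicate 2 the lowest of all. AC127084 (chr13) had log2 fold change -3.20 (adjusted p = 0.0560) and overlapped a coding row of the same name and strand, which was under the minimum level. AABR07021213 (chr13) had log2 fold change -2.25 (adjusted p = 0.0517), and Rgs2, a brake on G protein signalling 20959 bases away, had 0.98 (adjusted p = 0.251). Without ischemia replicate 1 the log2 fold changes of AABR07040629 and AC127084 were -4.84 and -4.00.

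**Figure D2:**
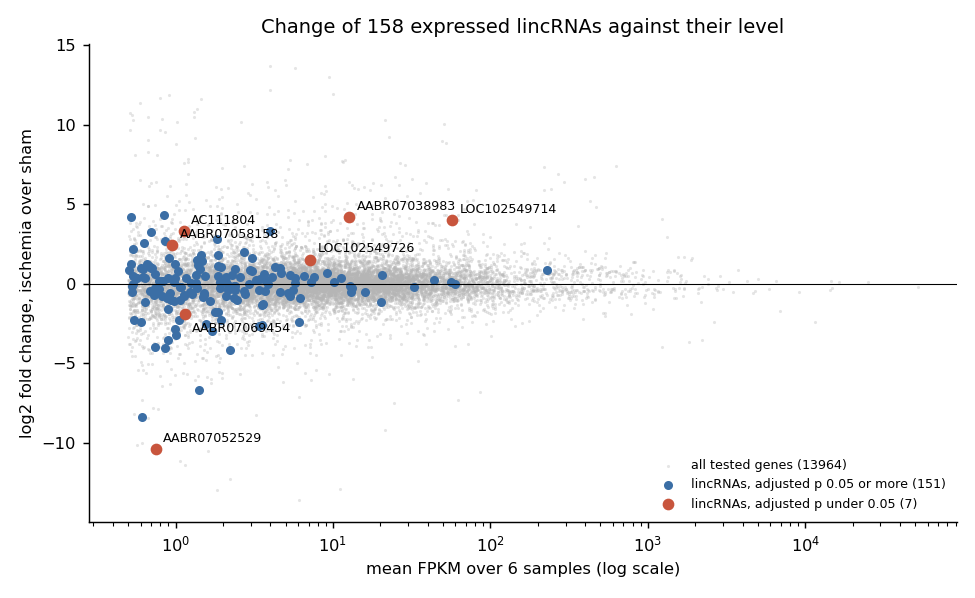
Log2 fold change of ischemia over sham against mean FPKM over the 6 samples (log scale), for the 158 lincRNAs and, in grey, all 13964 tested genes. The lincRNAs lie at the left, with a median mean FPKM of 1.55, and spread on both sides of 0.

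Over all 158 lincRNAs there was no common direction. The median log2 fold change was 0.04, beside -0.0015 for all tested genes and -0.016 for protein-coding genes, and 83 of the 158 (52.5%) were above 0. An unadjusted p under 0.05 was found for 37 (23.4%), beside 32.4% of all tested genes. The median absolute log2 fold change was 0.73 beside 0.57. The median coefficient of variation was 39.2% in sham and 45.9% in ischemia, beside 30.9% and 38.2% for the 3093 protein-coding genes between the quartiles of the lincRNA levels (0.892 to 3.53 FPKM), of which 4.40% passed the adjusted test. The lincRNA values include rows below and above that range, and the difference was not tested. The level rule bears on the extremes: 20 lincRNAs reached 0.5 FPKM only through ischemia and 17 only through sham. Among the 121 whose means were at least 0.5 in both groups the median log2 fold change was 0.013, the median absolute log2 fold change 0.54 and the share with an unadjusted p under 0.05 15.7%.

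The order of the libraries was followed through the rows. The highest of the 6 values was in ischemia replicate 2 for 55 lincRNAs (34.8%, beside 39.3% of all tested genes) and in sham replicate 1 for 34 (21.5%, beside 17.3%). The order of the summed neutrophil and monocyte markers in ischemia, replicate 2 above 3 above 1 with every sham sample below, was also that of 17 lincRNAs (10.8%, beside 13.5% of all tested genes). Of the rows above sham in every ischemia sample, 68.0% of the lincRNAs were in this order, beside 57.3% of all tested genes. Among the 7 called, AABR07038983, LOC102549714, AC111804 and LOC102549726 were in this order and AABR07058158 was not. The part of these cells in the result was not tested.

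Of the 10 lincRNAs with the highest mean FPKM, LOC102549714 alone passed the test. The 3 rows named AC134224 lay side by side on the minus strand of chr1. Which transcript each row stands for is not given in the table. ENSRNOG00000062158 (chr1:221158098-221158792) had the highest mean of all, with FPKM of 205, 53.5 and 215 in sham against 219, 429 and 252 in ischemia. The groups did not overlap, by the small step from 215 to 219, and the log2 fold change was 0.89 ± 0.48 (adjusted p = 0.236). ENSRNOG00000062127 (chr1:221154561-221156910) had 86.8, 25.2 and 64.3 FPKM in sham against 49.1, 71.8 and 61.8 in ischemia, and ENSRNOG00000062155 (chr1:221151827-221153278) had 45.4, 18.9 and 39.2 against 22.9, 35.8 and 34.4. Sham replicate 2 was lowest in all 3 rows. The log2 fold changes of the last 2 were 0.01 (adjusted p = 0.984) and -0.20 (adjusted p = 0.668), and that of ENSRNOG00000062127 was below 0 under median-ratio and upper-quartile scaling.

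LOC100912578, described as like the mitochondrial stress-70 protein, had FPKM of 58.3, 44.1 and 52.9 in sham against 59.5, 75.4 and 47.0 in ischemia (log2 fold change 0.14, adjusted p = 0.637). Hspa9, which encodes that chaperone, had 81.7 to 98.0 FPKM in sham against 90.3 to 116 in ischemia, and reads of such copies may be split between the rows. AABR07001389, 1761 bases downstream of the endothelial gene Myct1, had 17.6, 14.9 and 15.1 FPKM in sham against 12.9, 41.5 and 20.2 in ischemia (log2 fold change 0.53, adjusted p = 0.376), and Myct1 had a log2 fold change of 0.59. AABR07072236, opposite to Gramd1c, had 36.4, 14.4 and 32.2 FPKM in sham against 15.2, 8.73 and 13.9 in ischemia, and its log2 fold change of -1.16 did not pass (adjusted p = 0.0931). LOC100910710, described as like a complex I subunit, and AABR07002969 had log2 fold changes of -0.53 and -0.23 (adjusted p = 0.461 and 0.508). Of AABR07002969, all 6 values lay within 11.0 to 15.4 FPKM.

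Tug1, a lncRNA named for its induction by taurine in the retina and the one listed lncRNA with its own symbol, had FPKM of 7.13, 3.33 and 6.04 in sham against 4.06, 9.34 and 4.73 in ischemia. The groups overlapped, and the log2 fold change was 0.06 ± 0.35 (adjusted p = 0.920), with -0.01 on quantile-normalized FPKM.

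AABR07010868 (chr2:154030237-154033351, minus strand) was one of the 10 rows with the highest mean FPKM, and its sham samples were widely split. Its NCBI gene identifier is that of Strit1 in RefSeq, listed there as lncRNA, whose transcript carries the reading frame of a micropeptide (DWORF) that activates the calcium pump of the sarcoplasmic reticulum in slow and cardiac muscle. FPKM was 7.27, 93.6 and 8.62 in sham against 57.4, 32.3 and 63.6 in ischemia. Sham replicate 2 was the highest of all 6 samples and the other sham samples the lowest, and the log2 fold change was 0.25 ± 1.08 (adjusted p = 0.889). It was -0.25 without sham replicate 1, -0.24 without sham replicate 3 and 2.72 without sham replicate 2. The ventricular light chain gene Myl3, chosen after its values were seen, stood in the same order of all 6 samples, with FPKM of 796, 9024 and 1021 in sham against 5691, 3180 and 5780 in ischemia. Other genes of the ventricular list did not. Myl2 had 366, 2795 and 346 FPKM in sham against 1315, 594 and 1238 in ischemia, and Myh7 had 633, 1655 and 617 against 2494, 880 and 2470, where ischemia replicate 1 was the highest. Atp2a2, the pump itself, also had another order, with 1699, 1652 and 1441 in sham against 922, 274 and 506 in ischemia (log2 fold change -1.57, adjusted p = 0.103).

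**Figure D3:**
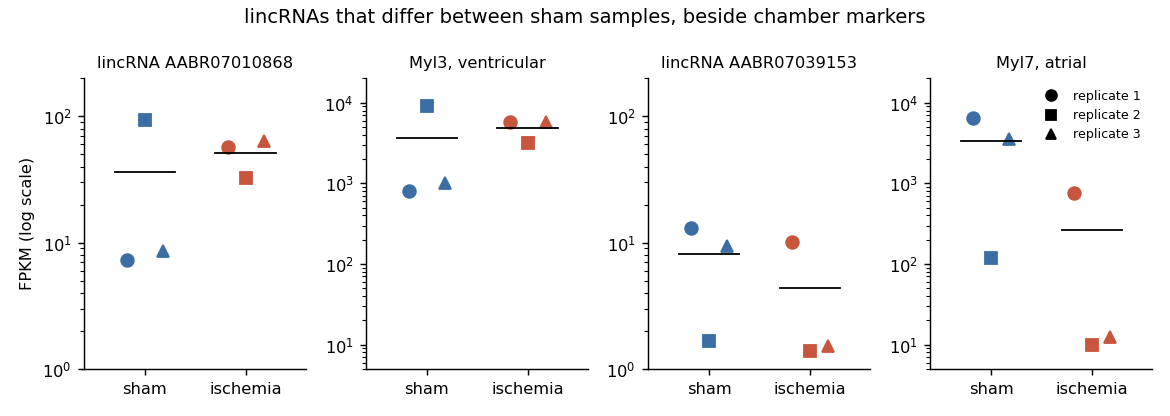
FPKM (log scale) of 2 lincRNAs, each beside a marker gene of a heart chamber, 1 point per sample with a line at each group mean. AABR07010868 and Myl3 are highest in sham replicate 2, while AABR07039153 and Myl7 are high in sham replicates 1 and 3 and ischemia replicate 1.

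Another pattern was seen in 4 lincRNAs, described after their values were seen. They were more than 2-fold higher in sham replicates 1 and 3 and ischemia replicate 1 than in each of the other 3 samples (2.53% of the lincRNAs, beside 0.852% of all tested genes), and these are the samples in which the atrial gene Myl7 stood highest (6530 and 3541 FPKM in sham replicates 1 and 3 and 764 in ischemia replicate 1, against at most 117 in the others). AABR07039153, 1727 bases downstream of Eda, had FPKM of 13.1, 1.66 and 9.48 in sham against 10.1, 1.39 and 1.52 in ischemia. The other 3 were AABR07050336, AABR07012762 and LOC102550325, none of which passed the test. In sham replicate 2, 22 lincRNAs (13.9%, beside 4.37% of all tested genes) were more than 3-fold lower than in both other sham samples, and 5 (3.16%, beside 0.981%) more than 3-fold higher. AABR07052529 and AABR07040629 were among the 22. The part of the atrial and ventricular tissue in these values was not tested.

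AABR07039356 (chrX:74333329-74337975, minus strand) was chosen after its values were seen, as the only lincRNA that was more than 10-fold higher in 1 sample than in each of the others with at least 30 counts. It had 628 counts in sham replicate 1, and 4, 0, 6, 0 and 0 in the others. Sham replicate 1 is the library with 161 counts on chromosome Y. The row lay between the coding rows Tsx and Zcchc13, where RefSeq lists Xist, Jpx and Ftx, the noncoding genes of X inactivation, which is confined to cells with more than one X chromosome. It overlapped a coding row on the opposite strand, and its log2 fold change of -6.66 rested on that 1 library (adjusted p = 0.157), through which it also reached the minimum level.

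Missing counts inside a group were more frequent than elsewhere. In 11 lincRNAs (6.96%, beside 1.33% of all tested genes), at least 1 sample had no counts while another of its group had at least 100. The 3 named here were chosen after their values were seen. AC141521 had 1092, 1266 and 0 counts in sham against 1383, 1357 and 994 in ischemia, and LOC103689920 had 508, 0 and 531 against 456, 1063 and 541. AABR07000382 had 399, 0 and 403 against 486, 680 and 432. In these 3, the value of 0 stood in 1 sham sample while each of the other 5 samples had at least 399 counts.

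Since a lincRNA may act on, or be read through from, the gene beside it, each was set beside its nearest protein-coding gene. A coding row lay within 10 kb of 77 lincRNAs, within 50 kb of 116 and within 100 kb of 138, with a median distance of 10425 bases. The nearest coding gene was itself tested for 112 lincRNAs, and both had log2 fold changes of the same sign in 63 (56.2%, 95% Wilson interval 47.0 to 65.1%), beside 53.4% of protein-coding genes and their nearest coding genes. Within 10 kb it was 37 of 61 (60.7%, 48.1 to 71.9%). These intervals take the pairs as independent, although the pairs share the same 6 libraries, so no conclusion was drawn from them. Across genes, the correlation of the pair's log2 fold changes was 0.0810 over all 112 and 0.350 over the 61, a description over points that share the same 6 libraries.

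**Figure D4:**
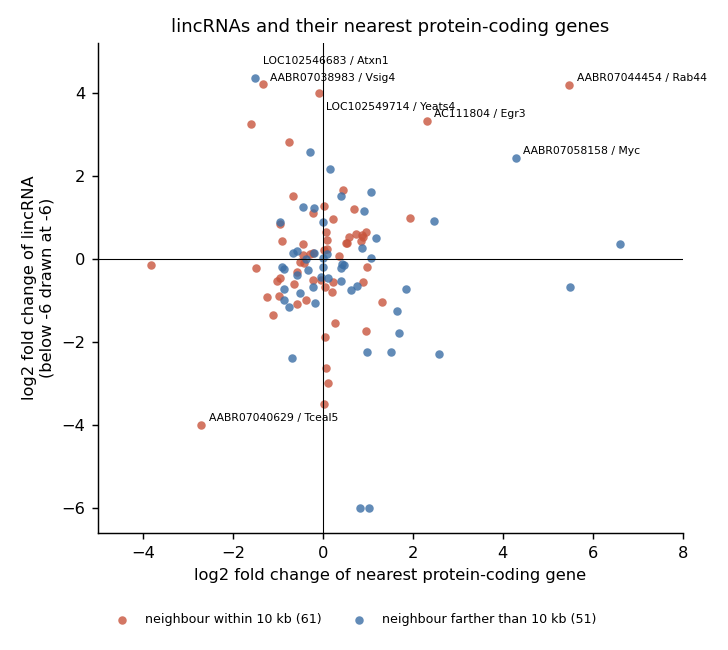
Log2 fold change of each lincRNA against that of its nearest protein-coding gene, for the 112 pairs in which both were tested, with the 61 pairs within 10 kb in red. AABR07058158 with Myc and AC111804 with Egr3 lie at the upper right and AABR07040629 with Tceal5 at the lower left, while AABR07038983 and LOC102549714 lie near or left of 0 on the horizontal axis.

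A few other neighbourhoods were looked at after their values were seen. AABR07025387 lay 1047 bases from Hand2, a transcription factor of heart development, on the opposite strand. It had FPKM of 16.8, 14.1 and 14.4 in sham against 17.1, 7.35 and 9.01 in ischemia (log2 fold change -0.51, adjusted p = 0.381), and Hand2 had 29.8, 36.2 and 33.1 in sham against 49.1, 16.3 and 36.3 in ischemia. Ischemia replicate 1 was the highest and ischemia replicate 2 the lowest of the 6 for both. AABR07065531 lay between Dlk1 and Ppp2r5c, the imprinted region where RefSeq lists Meg3, with FPKM of 3.06, 1.14 and 8.32 in sham against 0.164, 0.556 and no counts in ischemia. The groups did not overlap, and the log2 fold change of -4.15 ± 1.32 did not pass (adjusted p = 0.0959). It reached the minimum level through sham alone, and AABR07044454 through ischemia alone, so a difference was built into the choice of both. AABR07044454 lay between Cdkn1a and Rab44, with FPKM of 0.147 in sham replicate 1, no counts in the other sham samples, and 0.133, 2.56 and 0.287 in ischemia (log2 fold change 4.19, adjusted p = 0.155). Rab44, a GTPase of blood cells 649 bases downstream, had FPKM of 0.0910, 0.0642 and 0.0597 in sham against 0.269, 10.7 and 0.680 in ischemia (adjusted p = 0.0705). Cdkn1a, the cell cycle inhibitor p21 on the other side, rose by 2.09 on the log2 scale (adjusted p = 0.0445).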

How the data were processed

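RNA-seq was performed on total RNA of 3 sham and 3 ischemia myocardial samples from stranded libraries. The deposited table gives the raw counts and the FPKM that the authors computed for each gene, with 0.0001 FPKM where the count was 0. The submitters' processing notes name STAR and HTSeq without versions, and the genome build, annotation release and strand setting were not given in the sources used here. Annotation columns of the table were used for type, name and position.

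The 13964 genes averaging 0.5 FPKM or more entered the quasi-likelihood test of edgeR 4.0.16 (R 4.3.3) on the counts, with trimmed-mean scaling, no covariates, two-sided p-values and Benjamini-Hochberg adjustment over all of them. SE came from the F statistic. The rules for rows to name were: adjusted p under 0.05, at most 15 a direction, filled with p under 0.01 and non-overlapping groups; the 10 highest mean levels; lncRNAs of a fixed list; nearest coding genes; and 5 rows on each side of the minimum level. Names outside these, Msn, Hspa1b, Hspa9, Myl3 and Atp2a2 among them, were chosen after their values were seen. The members and lists were chosen with earlier results of these data known. Alternatives were limma 3.58.1 on log2(FPKM + 0.1), log2(FPKM + 1) and quantile-normalized FPKM, DESeq2 1.42.0, 3 scalings, other filters, a replicate block and each sample left out. The test was checked on simulated data. Wilson intervals take gene pairs as independent, and floors cover counting error only. Scripts ran in Python 3.11.15.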

Additional observations from a re-analysis of the deposited data

How the results depend on the processing

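The main fit called 5 lincRNAs higher and 2 lower. Upper-quartile scaling called 5 and 1 (4.76% and 1.37% of all genes) and total-count scaling 3 and 1 (3.65% and 0.594%). No expression filter gave 3 and 1 (2.40% and 0.453%). With a mean FPKM of at least 5, 28 lincRNAs were tested. Of these, 3 were higher (10.7%, against 8.89% of all genes) and 0 lower (against 3.57%). Called rows under that level were not in this fit. DESeq2 called 14 and 18 (14.8% and 12.5% of all genes), limma on log2(FPKM + 0.1) 8 and 5 (6.09% and 1.88%), limma on quantile-normalized FPKM 9 and 6 (5.87% and 3.17%), and limma on log2(FPKM + 1) 6 and 3 (4.70% and 1.5%). Of the 7 calls DESeq2 kept 7, limma on log2(FPKM + 0.1) and on quantile-normalized FPKM 6 each, and limma on log2(FPKM + 1) 3. AABR07069454 was lost in 12 of its 16 alternatives, with adjusted p of 0.0708, 0.0521 and 0.0854 in these limma fits. Leaving out one replicate gave 0 to 12 higher and 0 to 7 lower, while calls over all genes ranged from 0 to 2605, both highest without ischemia replicate 1 (10.7% of all genes higher and 7.98% lower). DESeq2 called 3813 of all genes against 937 and quantile normalization 1263, with 54.3% and 64.9% of calls higher against 77.2%. Total-count scaling gave 86.0%, with the median of all genes at 0.09. Of the lincRNAs selected by log2 fold change and p (7 above 2, 4 below -2), DESeq2 and both limma fits on the 0.1 scale selected 8 below -2, limma on log2(FPKM + 1) 2 and 2, no filter 2 below, and a mean of at least 5 FPKM 2 above and 0 below. Leaving out one replicate gave 2 to 9 above and 2 to 7 below.

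With the replicate number as a block, edgeR called 0 of all 13964 genes, so 0 lincRNAs higher and 0 lower, while 35 of the 158 had an unadjusted p under 0.05 and 4 were above 2 and 4 below -2. The labels give no tie between same-numbered samples. Their deviations from the group means had correlations of -0.0561, -0.0940 and -0.196, beside a mean of 0.0553 for differently numbered samples. With 3 samples in each group these values cannot settle whether the numbers pair the samples. Without sham replicate 1, 2 or 3 or ischemia replicate 3, edgeR also called 0 genes, with 35, 39, 23 and 28 lincRNAs at an unadjusted p under 0.05.

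The sign of some abundant rows turned, none of which passed the test. ENSRNOG00000062127 of AC134224 (0.01) was at -0.01 with median-ratio scaling and DESeq2, -0.03 with upper-quartile scaling, -0.04 with a mean of at least 5 FPKM, and between -0.31 and 0.37 with one replicate left out (-0.31, -0.07 and -0.04 without sham replicate 2, ischemia replicate 2 and ischemia replicate 3). Tug1 (0.06) was at -0.01 on quantile-normalized FPKM, -0.14 without sham replicate 2 and -0.33 without ischemia replicate 2. With one replicate left out, ENSRNOG00000062155 (-0.20) was between -0.44 and 0.01 and AABR07010868 (0.25) between -0.25 and 2.72, below 0 without sham replicate 1 (-0.25) or 3 (-0.24). The median over the lincRNAs stayed between -0.07 and 0.14, and the 158 rows were the same whether or not a further type label was allowed. The cause of these shifts was not tested. Depth limits the rows with few counts, such as AC111804 with 5 to 9 in sham.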
